A study of Mus musculus and Homo sapiens with 19 samples.

Results

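The genes described here are 33 interferon-stimulated genes, chosen by symbol as a set of transcripts that type I interferon is known to induce. They are Ddx58, Ifih1, Dhx58, Zbp1, Eif2ak2, Trim25, Irf7, Irf9, Stat2, Oas1a, Oas2, Oas3, Oasl1, Oasl2, Ifit1, Ifit2, Ifit3, Isg15, Usp18, Mx1, Mx2, Parp9, Parp14, Dtx3l, Bst2, Ifitm3, Rsad2, Cmpk2, Samd9l, Rtp4, Ifi35, Ifi44 and Xaf1. All 33 were found among the 24421 genes of the knockdown table and the 55573 genes of the co-culture tables. In the human table of 57992 genes 32 were found, since Oasl2 was given no human symbol. Oas1a was read there as OAS1 and Oasl1 as OASL.

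The series held 19 RNA-seq libraries of cultured cells. Mouse mammary tumour 4T1 cells carried a scramble shRNA (shSCR, n = 3) or an shRNA against PHGDH (shPHGDH, n = 3), both from the pLKO vector. Human breast cancer MDA-MB-231 cells were controls (n = 3) or were labelled as transduced with pLHCX carrying PHGDH cDNA (n = 3). The other 7 libraries were single samples. They were 4T1, the mouse mammary tumour line EMT6.5 and the mouse endothelial line Bend3, each alone, and the 4 sorted populations from 4T1 grown with Bend3 and from EMT6.5 grown with Bend3. PHGDH is the enzyme that opens serine synthesis from glycolysis, and no interferon was named as a treatment in the labels. Whether replicates came from separate cultures was not given, so a p-value here reflects only how far these libraries vary, which may be technical variation.

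Cells sense foreign or misplaced nucleic acid through receptors such as RIG-I and MDA5 and release type I interferon. Interferon binds the receptor made of IFNAR1 and IFNAR2, the kinases JAK1 and TYK2 are activated, and a complex that holds STAT2 and IRF9 switches on genes carrying interferon-stimulated response elements. The products block viral entry, translation and replication, and several of them are themselves sensors or transcription factors of the pathway. Tumour and endothelial cells can hold a low level of this programme without added interferon.

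The response element carries repeated GAAA cores, so the promoters of the members were searched for GAAA, any 2 bases, GAAA on either strand, with overlapping copies counted. RefSeq promoter windows on GRCm38.p6, which run from 250 bases before to 50 after a gene's start, were matched for 24 members. The motif was in 12 of these 24 genes (50%). It was in 18 of 34 other interferon-stimulated genes (52.9%), and in 1079 of the 27025 genes with a window (3.99%). The stretches below, on the gene's own strand with the motif in capitals, lie upstream of the start in 6 members whose levels are described later. They are shown because single, paired and overlapping copies on either strand can be seen in them. Capitals reading TTTC mark the motif on the opposite strand.
Isg15, chr4:156200860-156200911, minus strand: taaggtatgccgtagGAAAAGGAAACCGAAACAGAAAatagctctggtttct
Ifit1, chr19:34640770-34640828, plus strand: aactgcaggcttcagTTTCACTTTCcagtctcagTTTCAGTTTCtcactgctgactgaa
Ifit3, chr19:34583358-34583431, plus strand: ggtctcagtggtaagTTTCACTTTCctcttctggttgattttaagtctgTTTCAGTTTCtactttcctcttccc
Oas3, chr5:120777710-120777749, minus strand: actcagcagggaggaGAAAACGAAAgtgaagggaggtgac
Rsad2, chr12:26456548-26456587, minus strand: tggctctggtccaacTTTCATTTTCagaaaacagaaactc
Stat2, chr10:128270261-128270300, plus strand: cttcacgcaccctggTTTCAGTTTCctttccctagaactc
Isg15 held 3 overlapping copies, Ifit1 and Ifit3 held 2 each, and Oas3, Rsad2 and Stat2 held 1 each. No copy was found in the windows of Irf7, Ifi44, Cmpk2, Ifit2, Oasl1, Oasl2, Xaf1 or Samd9l, which says only that these letters are not in 300 bases around the start that was annotated.

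Several members lie side by side on GRCm38. Ifit2, Ifit3 and Ifit1 follow each other on chromosome 19 between 34550694 and 34650009. Oasl2 and Oasl1 are neighbours on chromosome 5 (114896936 to 114937915), as are Rsad2 and Cmpk2 on chromosome 12 (26442746 to 26479837). Parp9 and Dtx3l overlap at their starts on chromosome 16, where 9.4% and 8% of their exon bases are shared. Of the exon bases of Ifi35, 16.8% are shared with a gene on the opposite strand, and of those of Rtp4, 13.9% with a gene on the same strand. The kit marks strand, but no source used here says how strand was counted, so these genes are less certain, as are Ifit3, Ifit1 and Oas1a, which have near copies.

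Assigned counts per library came to 12.7 M to 20.51 M in the knockdown, 19.52 M to 23.77 M in MDA-MB-231 and 4.27 M to 7.67 M in co-culture (M for 1000000). In co-culture 48.2% to 55.3% of all entries counted came from reads aligned to several places, against 3.5% to 3.7% in MDA-MB-231. Such a read may hold more than 1 entry, so these are not shares of reads. Levels are given as CPM, the counts per 1000000 of a library scaled by the trimmed mean of M-values, within each experiment. Phgdh was at 167.3, 172.5 and 163.4 CPM in shSCR and at no more than 21.7 CPM in any shPHGDH library. PHGDH went against the label in MDA-MB-231, with 15.5, 15.7 and 18.3 CPM in controls and 5.99, 4.53 and 5.71 CPM in the libraries labelled PHGDH-overexpressing, so no direction of PHGDH is drawn from that label. The 12 endothelial markers summed to 10506 to 13213 CPM in the 3 Bend3 libraries and to 153.8 to 497.5 CPM in the 4 tumour libraries. The 12 epithelial markers summed to 2.04 to 53.7 CPM and 618.3 to 2101 CPM in the same libraries. Of these, Epcam, Cdh1 and Esrp1, which define epithelial cells, had 0 to 4 counts in both EMT6.5 libraries. Interferon ligands were hardly seen. Of 10 ligand genes, Ifnb1 among them, 9 had no count in any co-culture library and the tenth had 1 count in all. A count of 0 allows at most 0.692 CPM in the shallowest of these libraries, and intervals and limits from counts cover counting error only. Reads aligned to several places were tallied apart from the gene counts, so RNA of a ligand with near copies could be missed.

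The co-culture question was how tumour and endothelial cells change when grown together. In Bend3 cells grown with 4T1, all 30 members with a mean of at least 5 CPM stood above their level in Bend3 alone, by a median of 2.11-fold. Of these, 16 were at least 2-fold higher and 0 were 2-fold lower, while of all 10075 genes at that level 2.61% were at least 2-fold higher and 1.80% at least 2-fold lower. In Bend3 grown with EMT6.5, 25 of 27 members stood below Bend3 alone, by a median of 1.33-fold, and 0 passed 2-fold in either direction, against 2.14% of 10069 genes higher and 1.85% lower. Both comparisons use the same Bend3 library as their baseline. A gene under 5 CPM in 1 library of a pair entered only through the other, which fixed its direction. This held for Oas1a, Oas2 and Oasl1, at 4.08, 4.76 and 2.27 CPM in Bend3 alone, which could only stand higher with 4T1. Likewise Cmpk2, at 4.77 CPM with EMT6.5, could only stand lower there. Each culture is 1 library, so these are ratios between libraries with no test. In such bulk libraries fewer cells of a type and less RNA per cell cannot be told apart, and the intervals given below are 95% exact counting intervals.

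The transcription factors of the pathway were among them. Irf7, the factor that amplifies type I interferon production, was at 40.6 CPM in Bend3 alone, 24 CPM with EMT6.5 and 129.9 CPM with 4T1. That is 3.20-fold (2.71 to 3.79) above Bend3 alone with 4T1, and a ratio of 0.596 (0.473 to 0.751) with EMT6.5. Stat2, a signal transducer in the interferon complex, was at 61.7, 84.9 and 148.8 CPM in the same order. It was 1 of 2 members, with Trim25, above Bend3 alone with both partners among those with a mean of at least 5 CPM in both comparisons, by 2.41-fold (2.1 to 2.78) with 4T1 and 1.38-fold (1.18 to 1.60) with EMT6.5. Irf9, the DNA-binding part of the complex, was at 100.7, 88.6 and 173.8 CPM and 1.73-fold (1.54 to 1.94) higher with 4T1.

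The IFIT proteins bind foreign RNA and hold back its translation, and all 3 of their genes were high in the same library. Ifit1 was at 113.8 CPM in Bend3 alone, 72.3 CPM with EMT6.5 and 300.5 CPM with 4T1, 2.64-fold (2.39 to 2.92) above the culture alone. Ifit3 was at 133.1, 83.5 and 376.7 CPM, and Ifit2 at 25.6, 20 and 85.9 CPM. Their ratios with 4T1 were 2.83 (2.58 to 3.11) and 3.35 (2.72 to 4.15). Ifit3b, a near copy of Ifit3, stood at 35.4, 19.4 and 130.2 CPM.

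Among the oligoadenylate synthetase family, whose active members make the second messenger that switches on RNase L, Oasl2 was at 61.7 CPM alone, 35.4 CPM with EMT6.5 and 206.7 CPM with 4T1, 3.35-fold (2.93 to 3.84) above the culture alone. Oas2 was at 4.76, 0.367 and 17.7 CPM. Oas1a and Oasl1 were low but showed the same order at the top, with 9.01 and 10.7 CPM with 4T1 against 4.08 and 2.27 CPM alone. Oas3 did not reach 5 CPM in any Bend3 library.

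Isg15, the ubiquitin-like modifier, was at 19.5, 12.8 and 57.2 CPM in Bend3 alone, with EMT6.5 and with 4T1. Usp18, the protease that removes it and a brake on the receptor, was at 26.8, 13.4 and 57.0 CPM. Usp18 was 2.13-fold (1.72 to 2.66) higher with 4T1 and had a ratio of 0.5 (0.368 to 0.676) with EMT6.5. Mx2, a dynamin-like antiviral GTPase, went from 20 CPM alone to 39.4 CPM with 4T1 and 11.4 CPM with EMT6.5. Mx1 was at 0.907, 0.183 and 5.70 CPM, which rest on 4, 1 and 31 counts.

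The largest ratios among the effectors with 4T1 were those of Cmpk2, Ifi44 and Rsad2. Cmpk2, a mitochondrial nucleotide kinase, was at 6.35 CPM alone, 4.77 CPM with EMT6.5 and 28.5 CPM with 4T1, 4.49-fold (2.99 to 6.98) above the culture alone. Its neighbour Rsad2, the gene of viperin, was at 64.9, 48.8 and 155.2 CPM, and 2.39-fold (2.09 to 2.75) higher. Ifi44 was at 83.7, 64.0 and 299.1 CPM, and 3.57-fold (3.19 to 4.01) higher. The most abundant members differed less. Ifitm3, which blocks fusion of viruses with endosomes, was at 2013, 1861 and 3031 CPM, a ratio of 1.51 (1.47 to 1.54) with 4T1, and Bst2, which tethers virus particles to the cell surface, at 296.6, 214.2 and 423.0 CPM. Xaf1, Samd9l, Ifi35 and Rtp4 had ratios of 1.23 to 1.73 with 4T1.

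The sensors had the smallest median of the roles with 4T1, a log2 ratio of 0.51 over 5 genes. Ifih1, the gene of MDA5, was 2.21-fold (1.74 to 2.82) higher with 4T1, from 22.0 to 48.6 CPM. Ddx58, the gene of RIG-I, was 1.23-fold (1.13 to 1.34) higher, from 196.6 to 242.4 CPM. Trim25, the ubiquitin ligase that acts on RIG-I, was at 270.6, 270.9 and 295.4 CPM alone, with EMT6.5 and with 4T1. Dhx58 and Eif2ak2, which encode LGP2 and the kinase PKR, had ratios of 1.43 (1.13 to 1.83) and 1.54 (1.29 to 1.85). Zbp1 had 0 counts in Bend3 alone and with EMT6.5 and 18 counts, 3.31 CPM, with 4T1. Among the ADP-ribosylation group, Parp14 went from 62.1 to 132.6 CPM with 4T1, Dtx3l from 61.7 to 109.6 CPM and Parp9 from 61.2 to 92.9 CPM.

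**Figure D1:**
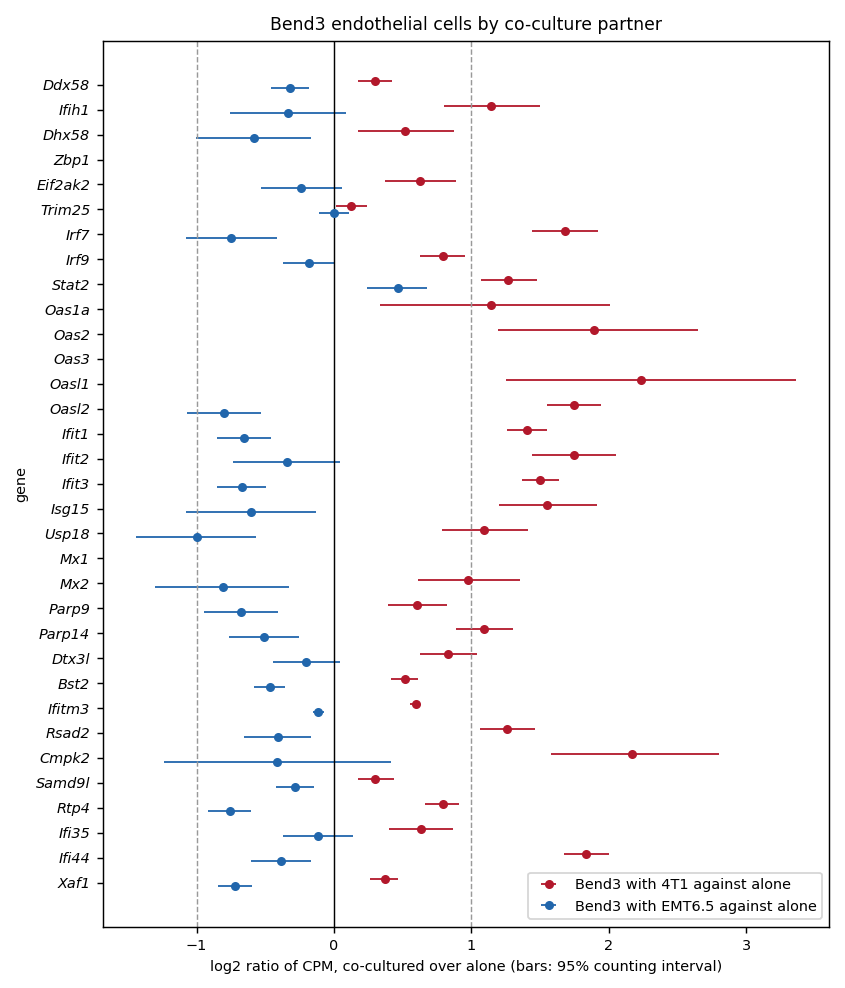
Log2 ratio of CPM in co-cultured over lone Bend3 cells (x axis) for each member with a mean of at least 5 CPM (y axis), with 95% counting intervals as bars and dashed lines at 2-fold. All 30 points for growth with 4T1 lie right of 0, and 25 of the 27 for growth with EMT6.5 lie left of it.

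Set against each other, the Bend3 library grown with 4T1 stood above the one grown with EMT6.5 in all 30 members with a mean of at least 5 CPM, by a median of 2.97-fold. Of these 21 were at least 2-fold higher and 0 at least 2-fold lower, while 2.17% of 10084 genes were at least 2-fold higher and 1.25% at least 2-fold lower. Oas1a, Oas2, Oasl1 and Cmpk2 were under 5 CPM with EMT6.5, so they could only count as higher. Oas2 differed most, with 96 counts against 2. Oasl2 was 5.84-fold (5.01 to 6.84) higher, Cmpk2 5.98-fold (3.93 to 9.44) and Irf7 5.36-fold (4.45 to 6.51). The smallest ratio was that of Trim25, 1.09 (1.02 to 1.17).

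The rest of the pathway moved less in Bend3 with 4T1. Of 11 receptor and signalling genes at 5 CPM or more, 0 were at least 2-fold apart from Bend3 alone on the log scale with a prior count of 2, and the median log2 ratio was 0.47. Ifnar1 was at 55.6 CPM alone, 56.9 CPM with EMT6.5 and 96.0 CPM with 4T1, and Ifnar2 at 59.4, 85.3 and 82.6 CPM. Jak1 was at 633.0, 647.1 and 579.7 CPM and Tyk2 at 51.7, 58.9 and 48.4 CPM. Of 11 genes that sense nucleic acid or signal from such sensors, 0 passed 2-fold, with a median log2 ratio of -0.02. Of 35 other interferon-stimulated genes, 33 were above Bend3 alone with 4T1 and 14 at least 2-fold. The largest, beside Ifit3b, were Iigp1 (3.94-fold, 3.20 to 4.88) and Gbp5 (4.10-fold, 2.42 to 7.37), both interferon-induced GTPases, and Isg20, an exonuclease (3.56-fold, 2.57 to 5.02). Gbp5 was at 3.86 CPM in Bend3 alone and entered only through its level with 4T1, so it could only stand higher.

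RNA of the partner was measured in each sorted population from genes that reach 50 CPM in the lone partner but stay at or under 0.5 CPM in the lone host. It came to 1.95% in Bend3 with 4T1 and 1.48% in Bend3 with EMT6.5. With that share of the partner library's own level taken off, 16 of 30 members were again at least 2-fold higher in Bend3 with 4T1. The 10 leukocyte markers summed to between 238.3 and 436.6 CPM over the Bend3 libraries, and their part in the result was not tested. Of 11 members with the promoter motif at 5 CPM or more, 7 were at least 2-fold higher, with a median log2 ratio of 1.13, and of 12 without it 6 were, with a median of 1.25.

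In the tumour cells of the same co-cultures the members went different ways by line. In 4T1 with Bend3, 6 of 26 members at 5 CPM or more were at least 2-fold higher than in 4T1 alone and 5 at least 2-fold lower. Over all 10132 genes the shares were 14.1% and 10.8%, the widest spread of the 4 pairs. In EMT6.5 with Bend3, 9 of 22 members were at least 2-fold higher and 1 was lower, against 4.72% and 6.25% of 10206 genes. Some members passed the 5 CPM mean only through the library where they were high, which fixed their direction. Among the 9 higher in EMT6.5 these were Isg15, Rsad2, Ifit1, Irf7 and Rtp4, all under 5 CPM alone. In 4T1 they were Dhx58 and Xaf1 among the 6 higher, and Cmpk2 and Ifit2 among the 5 lower.

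Irf7 was the one member at least 2-fold higher in both lines grown with Bend3, among those with a mean of 5 CPM or more in each. It was at 5.83 CPM in 4T1 alone and 28.4 CPM with Bend3, 4.87-fold (3.19 to 7.68) higher, and at 3.32 and 21.6 CPM in EMT6.5, 6.49-fold (4.22 to 10.3) higher. Irf9 was 1.83-fold (1.51 to 2.22) higher in 4T1 and 2.40-fold (1.82 to 3.19) higher in EMT6.5. In 4T1 the members past 2-fold upward also included Ifitm3, at 256.2 CPM alone and 1225 CPM with Bend3, Dhx58 at 3.89 and 12.2 CPM, Parp9 at 17.7 and 44.1 CPM, Samd9l at 18.6 and 38.1 CPM and Xaf1 at 4.32 and 15.5 CPM. Samd9l fell under 2-fold once partner RNA was taken off (log2 ratio 0.86), and Xaf1 was left with a log2 ratio of 1.03 in place of 1.75.

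Among members with a mean of at least 5 CPM in both lines, 3 were at least 2-fold lower in 4T1 and at least 2-fold higher in EMT6.5. Rsad2 was at 63.3 CPM in 4T1 alone and 12.2 CPM with Bend3, 5.18-fold (3.85 to 7.07) lower, and at 2.09 and 12.8 CPM in EMT6.5, 6.12-fold (3.54 to 11.2) higher. Ifit1 was at 49.9 and 22.8 CPM in 4T1 and at 1.35 and 12.4 CPM in EMT6.5. Oasl1 was at 69.8 and 24.0 CPM in 4T1 and at 19.0 and 46.6 CPM in EMT6.5. In each of the 3, the lone 4T1 culture was the highest of the 4 tumour libraries and the lone EMT6.5 culture the lowest. Cmpk2, beside Rsad2 on chromosome 12, was at 11.2 and 2.31 CPM in 4T1, 4.87-fold (2.45 to 10.7) lower, and at 0 and 8 counts in EMT6.5. Ifit2 was lower with Bend3 in both lines, 2.72-fold (1.63 to 4.70) in 4T1 and 2.20-fold (1.55 to 3.19) in EMT6.5. In EMT6.5 the highest ratio was that of Isg15, at 1.72 CPM alone and 17.5 CPM with Bend3, 10.2-fold (5.73 to 19.3) higher, while in 4T1 it was at 24.4 and 23.1 CPM.

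**Figure D2:**
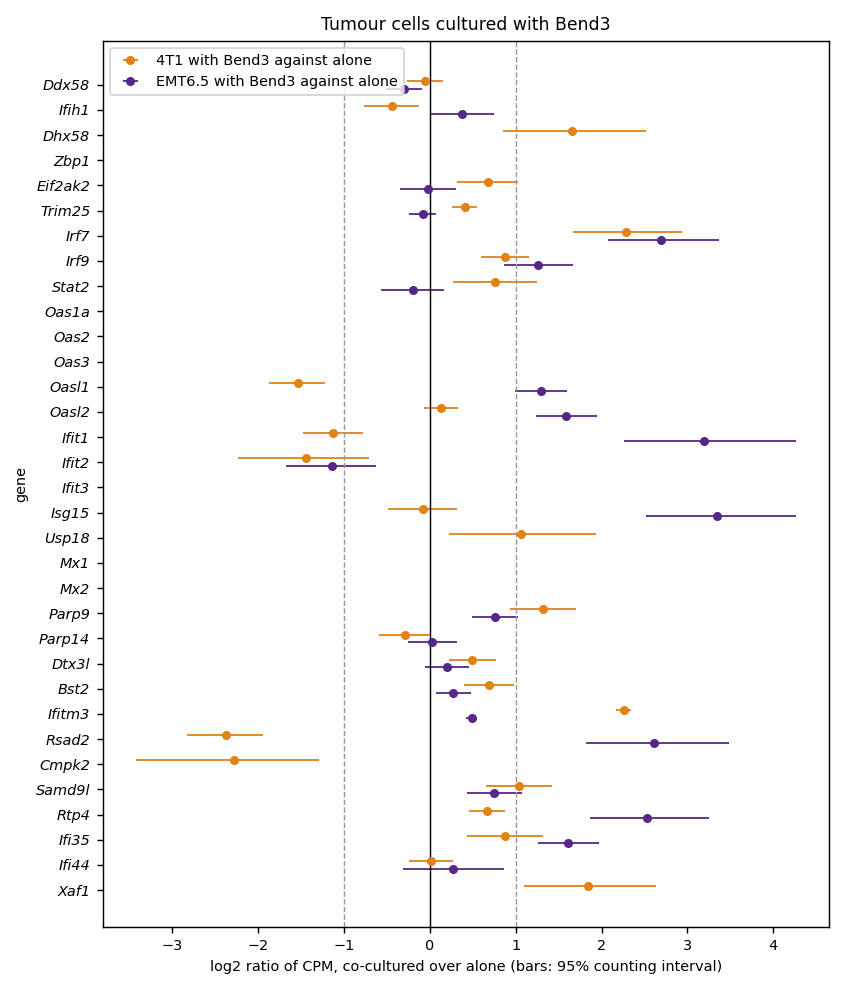
Log2 ratio of CPM in co-cultured over lone tumour cells (x axis) for each member with a mean of at least 5 CPM in that line (y axis), with 95% counting intervals as bars and dashed lines at 2-fold. Rsad2, Ifit1 and Oasl1 lie left of -1 in 4T1 and right of 1 in EMT6.5, while Irf7 lies right of 1 in both.

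Partner RNA came to 1.69% in 4T1 with Bend3 and 1.48% in EMT6.5 with Bend3. Taking it off left 5 members at least 2-fold higher and 5 lower in 4T1, and 9 higher and 1 lower in EMT6.5. Of the pathway genes in 4T1 with Bend3, Tyk2 was at 5.83 CPM alone and 40.2 CPM in co-culture, Jak2 at 30.0 and 96.7 CPM, and Irf1, a factor that acts at similar promoter elements, at 270.0 and 120.2 CPM. Of 9 negative regulators 3 were at least 2-fold higher there and 0 at least 2-fold lower, against 14.1% and 10.8% of all genes. They were Socs1 at 1.94 and 15.9 CPM, Socs3 at 41.9 and 111.0 CPM and Ptpn6 at 4.32 and 40.6 CPM, all of which restrain cytokine receptor signalling. Socs1 and Ptpn6 were under 5 CPM in 4T1 alone, so they could only count as higher. In EMT6.5 with Bend3, 0 of 11 receptor and signalling genes and 0 of 9 negative regulators passed 2-fold.

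The 3 lines differed in their own level of these genes. The 7 libraries were fitted with edgeR by cell line, with co-culture as a covariate, which leaves 3 residual degrees of freedom. Each library of a line is a different culture, and the covariate is 1 term shared by all lines and partners. Changes that differ by line or partner, as seen above, therefore remain in the residual. The SE and adjusted p of this fit thus do not measure spread between replicates. Of 32 members tested, 12 were higher in Bend3 (n = 3) than in 4T1 (n = 2) and 1 was lower, at a Benjamini-Hochberg adjusted p under 0.05. The share of all 13092 genes was 17.9% higher and 17.0% lower. Against EMT6.5 (n = 2), 17 members were higher in Bend3 and 1 lower, with 18.2% and 16.9% of all genes. The median log2 fold change of the members was 1.20 against 4T1 and 2.12 against EMT6.5, beside -0.02 and -0.01 over all genes tested. These comparisons share the Bend3 libraries.

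Xaf1, which encodes a partner of an apoptosis inhibitor, had the largest log2 fold change of the members against EMT6.5 and the next to largest, after Ifit3, against 4T1. It was at 287.6, 370.1 and 174.8 CPM in Bend3 alone, with 4T1 and with EMT6.5, at 4.32 and 15.5 CPM in 4T1 alone and with Bend3, and at 0.861 and 2.85 CPM in EMT6.5 alone and with Bend3. Its log2 fold change was 4.87 (SE 0.58, edgeR adjusted p = 0.000441) against 4T1 and 7.29 (SE 0.68, adjusted p = 0.000113) against EMT6.5. Ifit3 was at 83.5 to 376.7 CPM in Bend3 and at 2.71 to 6.70 CPM over the 4 tumour libraries, with log2 fold changes of 5.20 (SE 0.78) and 5.85 (SE 0.79). Mx2, Samd9l, Bst2, Stat2, Usp18, Ddx58, Irf9 and Ifi35 were also higher in Bend3 than in both tumour lines.

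Oasl1, which encodes an OAS-like protein that restrains Irf7 translation, was the one member lower in Bend3. It was at 2.27 to 10.7 CPM in Bend3 and at 19.0 to 69.8 CPM in the tumour libraries, with log2 fold changes of -3.35 (SE 0.79) against 4T1 and -2.64 (SE 0.72) against EMT6.5. Its neighbour Oasl2 did not pass in either comparison, with log2 fold changes of -0.11 (SE 0.63) and 1.92 (SE 0.67). Against EMT6.5 Oasl2 did pass with DESeq2 (adjusted p = 0.018), with no filter on low counts (0.0148) and without 4T1 alone, 4T1 with Bend3 or Bend3 with EMT6.5 (0.00674 to 0.0384). Oas1a, Oas2 and Oas3 did not pass either, and Isg15 did not pass against either line (log2 -0.02, SE 0.74, and 1.79, SE 0.80).

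Between the tumour lines 3 members were higher in 4T1 and 0 lower, with 4.94% and 5.42% of all genes. Without the adjustment 9 members were higher at an edgeR p under 0.05 and 0 lower, but the share of all genes at that threshold was not computed. DESeq2 called 6 members higher and 0 lower, beside 952 higher and 999 lower among 22297 genes. Rtp4, a chaperone of membrane receptors that also acts against viruses, was at 68.9 and 109.4 CPM in 4T1 and at 2.95 and 17.1 CPM in EMT6.5 (log2 3.38, SE 0.67, edgeR adjusted p = 0.0153). Ifi44 was at 54.2 and 54.9 CPM against 7.38 and 8.95 CPM (log2 2.76, SE 0.67), and Irf9 at 37.4 and 68.3 CPM against 10.8 and 26.0 CPM (log2 1.57, SE 0.39).

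**Figure D3:**
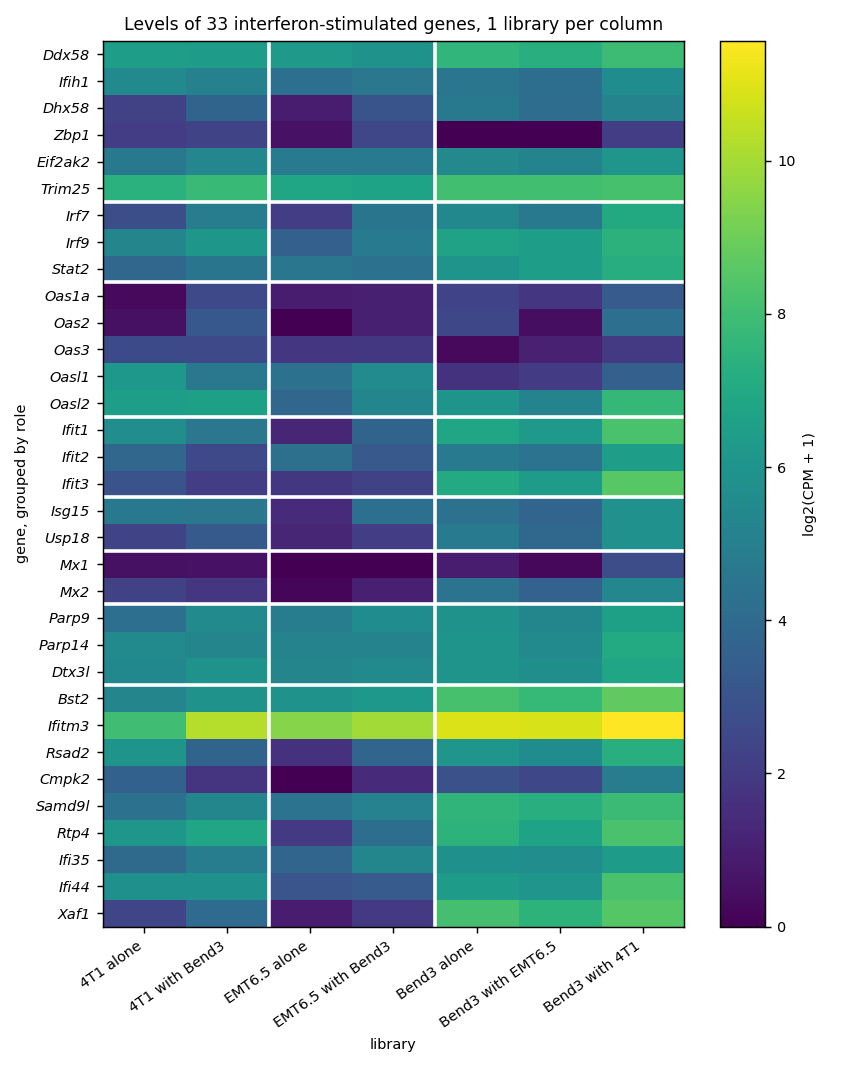
Levels of the 33 members as log2 of CPM plus 1 (colour) in the 7 co-culture libraries (columns, ordered by cell line and divided by white lines) with genes grouped by role (rows). The column for Bend3 with 4T1 is the brightest for most genes, Ifitm3 is the brightest row, and Oasl1 is darker in Bend3 than in either tumour line.

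Per kilobase of exon, Ifitm3 was the most abundant member in all 7 libraries, at 2970 CPM per kilobase in Bend3 alone, 377.9 in 4T1 alone and 1036 in EMT6.5 alone. Bst2 followed in Bend3 alone at 328.5 and Rtp4 at 82.5. In 4T1 alone the next were Bst2 at 40.9, then Isg15 and Rtp4, both at 32.3. In EMT6.5 alone Bst2 stood at 64.3 and Trim25 at 19 while Isg15 stood at 2.28.

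The line fit was sensitive to single libraries. The 12 members higher in Bend3 than in 4T1 became 6 without Bend3 with 4T1, 7 without Bend3 alone and 7 without 4T1 with Bend3, and the 17 against EMT6.5 became 11 without EMT6.5 alone. Irf9 against 4T1 did not pass with library totals (log2 0.96, adjusted p = 0.0589), with cell line as the only term (1.20, 0.0701) or without any 1 of 6 libraries, Bend3 with EMT6.5 being the exception (adjusted p up to 0.194). Against 4T1, without each of Bend3 alone, 4T1 with Bend3 and Bend3 with 4T1 in turn, the adjusted p was 0.118, 0.073 and 0.117 for Usp18, 0.117, 0.118 and 0.0934 for Mx2, and 0.117, 0.0636 and 0.065 for Ifi35. Usp18 was also lost without 4T1 alone (adjusted p = 0.083). Against EMT6.5, Ifi35 was lost without EMT6.5 alone (log2 0.84, adjusted p = 0.237), Bend3 alone or Bend3 with 4T1 and with cell line as the only term, Usp18 without EMT6.5 alone (0.0627), and Ddx58 and Stat2 without EMT6.5 with Bend3 (0.0524 and 0.0823). Xaf1, Ifit3, Bst2 and Samd9l passed against both lines under every alternative run. The call of Oasl1 was lost without Bend3 alone in both comparisons and, against EMT6.5, also without EMT6.5 alone, EMT6.5 with Bend3 or Bend3 with EMT6.5. The 3 members higher in 4T1 than in EMT6.5 became 0 without EMT6.5 alone, 1 without EMT6.5 with Bend3, 5 without Bend3 with EMT6.5 and 6 without 4T1 with Bend3.

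Of the receptor and signalling genes, 7 of 12 were higher in Bend3 than in 4T1 and 2 lower. The means and SDs below are over the libraries of a line, each a different culture. Such an SD holds the co-culture change and is not a spread between replicates. Ifnar1 averaged 69.5 ± 23.0 CPM in Bend3 (SD, n = 3) and 21.6 ± 1.48 CPM in 4T1 (SD, n = 2), with a log2 fold change of 1.63 (SE 0.33), and Ifnar2 75.8 ± 14.2 and 33.6 ± 13.6 CPM (log2 1.19, SE 0.35). Irf1 was lower in Bend3, at 71.3 ± 15.7 against 195.1 ± 105.9 CPM (log2 -1.31, SE 0.35). Its 2 libraries in 4T1 were at 270.0 CPM alone and 120.2 CPM with Bend3. Ifnar2 against 4T1 lost its call with library totals (adjusted p = 0.0553) and without any 1 of 5 libraries, with a log2 fold change of 0.57 (adjusted p = 0.211) without 4T1 with Bend3, and Irf1 without any 1 of 5, with -0.72 (0.105) without 4T1 alone. Against EMT6.5, 5 of 12 were higher, Ifnar1 and Ifnar2 among them, though Ifnar2 did not pass with library totals (0.0835) or without any 1 of 4 libraries (up to 0.227) and Ifnar1 not without EMT6.5 with Bend3 (0.075). Of 39 other interferon-stimulated genes tested, 18 were higher in Bend3 than in 4T1 and 5 lower. Trim30a stood at 282.2 ± 103.4 against 7.96 ± 6.37 CPM, while Psmb8, an immunoproteasome subunit, was lower at 14.0 ± 5.03 against 78.5 ± 22.4 CPM.

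The knockdown asked what changes in 4T1 cells with less PHGDH. The members split. Of 29 tested, 9 rose and 7 fell in shPHGDH at an edgeR adjusted p under 0.05, and their median log2 fold change was 0.07, beside -0.01 over all genes. Of all 11568 genes tested, 30.1% rose and 29.6% fell, so the share of members called, 9 and 7 of 29, is near that of genes in general. The 4 members that rose by 2-fold or more were all under 4 CPM, and the 7 that fell were all above 6 CPM. The 4 members not tested, Oas2, Ifit3, Mx1 and Mx2, were under 1 CPM in all 6 libraries.

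Ifi44 rose most, from 0.479, 0.465 and 0.990 CPM in shSCR to 2.91, 2.70 and 2.51 CPM in shPHGDH (log2 2.00, SE 0.27, adjusted p = 3.41e-07). Ifit1 was at 1.03, 1.22 and 1.20 CPM in shSCR and at 2.91, 2.70 and 3.19 CPM in shPHGDH (log2 1.36, SE 0.21). The groups did not overlap in either gene. The neighbours Cmpk2 and Rsad2 both rose, Cmpk2 from a mean of 0.558 ± 0.202 to 1.45 ± 0.307 CPM (log2 1.38, SE 0.33) and Rsad2 from 0.562 ± 0.0752 to 1.18 ± 0.0919 CPM (log2 1.03, SE 0.33, SD and n = 3 in each group). Smaller rises were those of Rtp4 (log2 0.46), Dtx3l (0.32), Parp14 (0.31), Irf9 (0.30) and Ifitm3 (0.13). Genes of chromosome 14, where Irf9 lies, had a median log2 fold change of 0.51, higher than that of Irf9 itself.

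Oasl1 fell most. It was at 16.1, 16.8 and 16.8 CPM in shSCR and at 7.77, 6.76 and 7.82 CPM in shPHGDH (log2 -1.14, SE 0.09, adjusted p = 1.41e-11), while its neighbour Oasl2 was at 10.9 to 13.2 and 12.9 to 13.7 CPM (log2 0.08, SE 0.089). Ifit2, next to Ifit1 in the same cluster, went the other way from it, from 24, 23.8 and 27.7 CPM to 16.7, 16.4 and 14.0 CPM (log2 -0.70, SE 0.08). Ddx58 was at 93.9, 92.1 and 89.0 CPM in shSCR and at 60.7, 60.9 and 60.2 CPM in shPHGDH (log2 -0.60, SE 0.038), where genes of its chromosome 4 had a median of -0.22. Stat2 was at 22.9, 23.0 and 21.1 CPM and at 15.1, 15 and 14.7 CPM (log2 -0.58, SE 0.072). Bst2 (log2 -0.56) and Ifi35 (log2 -0.54) fell by like amounts and Trim25 by less (log2 -0.21), and the chromosome 8 median beside Bst2 was -0.25.

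**Figure D4:**
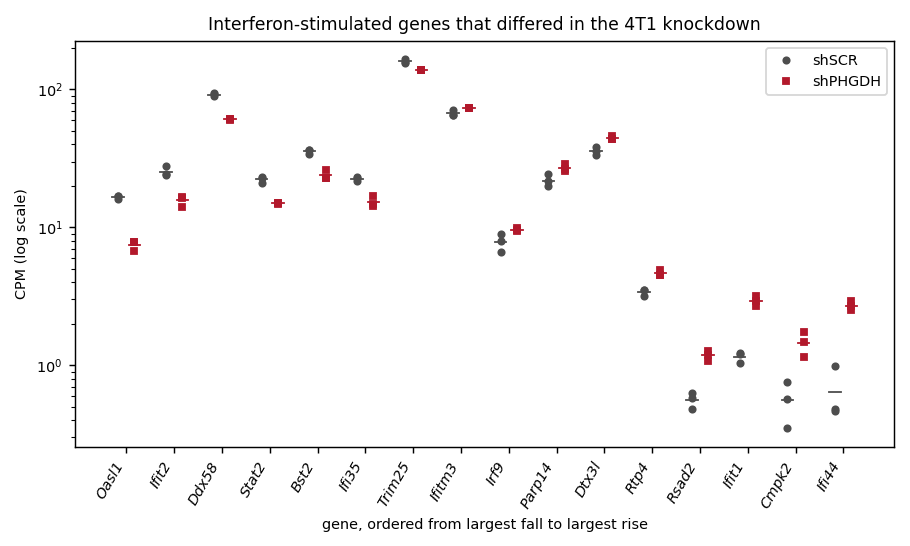
Levels in CPM (y axis, log scale) of the 16 members that passed the test in the 4T1 knockdown (x axis, ordered by fold change), with each of the 3 shSCR and 3 shPHGDH libraries as a point and the group means as lines. The 4 largest rises, at the right, are all in genes under 4 CPM, and Ifitm3 and Trim25 differ least among the more abundant members.

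The members that did not pass included Isg15, at 7.47 ± 1.30 in shSCR and 6.42 ± 0.621 CPM in shPHGDH (SD, n = 3 each), Irf7 at 1.79 ± 0.124 and 2.21 ± 0.505 CPM, Ifih1, Eif2ak2, Samd9l and Xaf1. Of the receptor and signalling genes 6 of 12 rose and 5 fell. Ifnar1 rose from 45.1 ± 1.52 to 53.4 ± 3.41 CPM (log2 0.24, SE 0.051) and Ifnar2 by 0.25 (SE 0.065), while Ifnlr1, a lambda interferon receptor chain, fell from 20 ± 1.59 to 9.25 ± 0.948 CPM. Of 35 other interferon-stimulated genes 5 rose and 18 fell. They included Ifi47, an interferon-induced GTPase, which fell from 18.3 ± 1.17 to 7.14 ± 0.326 CPM (log2 -1.36, SE 0.09), and Lgals3bp, a secreted glycoprotein, which rose from 14.3 ± 1.06 to 32.6 ± 1.06 CPM (log2 1.18, SE 0.07). Of 12 epithelial markers 10 fell and 2 rose, with sums of 4706 to 4848 CPM in shSCR and 4272 to 4319 CPM in shPHGDH. Of 12 endothelial markers only 3, Eng, Flt1 and Egfl7, were tested, and all 3 rose. The 12 summed to 89.8 to 95.2 CPM in shSCR and 136 to 139.8 CPM in shPHGDH. The others, Pecam1, Cdh5 and Kdr among them, stayed under 1 CPM in every library, so the sum rests on those 3 genes. Of 10 leukocyte markers 4 were tested and 3 rose, with sums of 9.18 to 10.8 and 13.8 to 15.9 CPM. The part of these shifts in the results was not tested.

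Sequencing lane went partly with the groups, since shSCR 1 and 2 ran on lane 5 and all other libraries on lane 6. With lane in the model 7 members rose and 7 fell, and within lane 6 alone, where the 1 shSCR library is assumed to vary like the others, the counts were the same. There Rsad2 (log2 0.90, adjusted p = 0.137), Rtp4 (0.42, 0.0821) and Parp14 (0.17, 0.123) no longer passed, while Oas1a did (1.07, 0.0325). DESeq2 did not call Rsad2 (adjusted p = 0.0676) or Rtp4 (0.0805). The call of Irf9 was lost without shSCR replicate 3 (log2 0.17, adjusted p = 0.191), without shPHGDH replicate 1 (0.28, 0.0586) and with DESeq2 (0.30, 0.116).

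In MDA-MB-231 more members were higher than lower. Of 28 tested, 13 were higher and 4 lower in the libraries labelled PHGDH-overexpressing than in controls, where 21.6% of 17663 genes were higher and 22.9% lower. The median log2 fold change was 0.18, beside -0.01 for all genes. Among all genes called, 48.5% were higher, and 38.4% when libraries were scaled by their totals, where 12 members were higher and 5 lower. Of the members tested, only RTP4 and XAF1 differed by 2-fold or more. ZBP1, MX2, RSAD2 and CMPK2 were too low to test, at 0 to 0.734 CPM.

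XAF1 was at 3.13, 3.90 and 3.06 CPM in controls and at 6.97, 7.38 and 6.92 CPM in the other group (log2 1.08, SE 0.15, adjusted p = 3.58e-06). OASL was at 12.6, 10.3 and 11.4 CPM and at 22.1, 21.7 and 21.9 CPM (log2 0.93, SE 0.096). Neither gene overlapped between the groups. RTP4 had the highest log2 fold change, 1.31 (SE 0.47), but its libraries overlapped, with 0.124, 0.6 and 0.401 CPM in controls and 1.03, 0.475 and 1.26 CPM in the other group.

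IFIT1 was at 28.5, 30.3 and 30.7 CPM in controls and at 36.9, 44.9 and 41.7 CPM in the libraries labelled PHGDH-overexpressing (log2 0.47, SE 0.081), and IFIT3 at 60.5 ± 1.37 and 78.1 ± 5.08 CPM (SD, n = 3 each; log2 0.37, SE 0.067), while IFIT2 did not pass (log2 0.06, SE 0.07). IFITM3 was higher by 0.41 on the log2 scale (SE 0.059), IFI35 by 0.50, MX1 by 0.55 and PARP9 by 0.40. Of the sensors, IFIH1 (log2 0.54), DHX58 (0.52) and TRIM25 (0.22) were higher. DDX58 was lower, at 80.4, 74.9 and 80.3 CPM in controls and 52.6, 54.9 and 50.8 CPM in the other group (log2 -0.57, SE 0.066), as was EIF2AK2 (log2 -0.26, SE 0.073). IRF9 was lower as well, at 18.1 ± 0.589 and 14.6 ± 0.738 CPM (log2 -0.31, SE 0.092), and IRF7 and STAT2 did not pass.

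Of the receptor and signalling genes 1 of 12 was higher and 5 lower, among them IFNAR1, from 63.0 ± 2.61 in controls to 49.9 ± 4.06 CPM (log2 -0.33, SE 0.072), and IFNAR2 (log2 -0.43, SE 0.12). Epithelial markers summed to 1293 to 1323 CPM in controls and 1938 to 2186 CPM in the other group, 5 of 8 tested being higher and 2 lower, and their part in the result was not tested. Of 26 other interferon-stimulated genes tested 10 were higher and 2 lower, and ISG20 was the furthest apart, at 1.56 ± 0.209 and 5.92 ± 0.464 CPM (log2 1.93, SE 0.18). The calls of PARP14 (log2 -0.20), DTX3L (0.18), RTP4, DHX58 and MX1 were lost under DESeq2, with adjusted p of 0.114, 0.0725, 0.0963, 0.054 and 0.0744. DTX3L was also lost with library totals (0.179), with no filter (0.0736), with the replicate block (0.0551) and without any 1 of 5 libraries, and PARP14 with relative log expression size factors (0.0515), no filter (0.0518), the replicate block (0.0597) and without any 1 library except control replicate 2. DHX58 was lost without any 1 of 3 libraries, MX1 of 2 and RTP4 of 4. PARP9 was lost without replicate 1 of the other group (0.0529), and RTP4 fell to 0.84 (adjusted p = 0.154) without control replicate 1. The 4 lower calls became 2 without that library, which ended those of PARP14 (log2 -0.11, adjusted p = 0.298) and EIF2AK2 (log2 -0.16, adjusted p = 0.0645).

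The knockdown and MDA-MB-231 share no library, so their values can be set side by side for the 25 members tested in both. Of these, 10 passed in both, 5 in the same direction and 5 in opposite ones. Both experiments call large shares of all genes, as given above, and the share of all genes called in both was not computed, so nothing particular to the members is read from this count. The calls of DTX3L, PARP14 and RTP4 in MDA-MB-231 and of Irf9, Rtp4 and Parp14 in the knockdown are those lost under the alternatives above. The same direction was seen for Ddx58 (log2 -0.60 in the knockdown and -0.57 in MDA-MB-231), Ifit1 (1.36 and 0.47), Rtp4 (0.46 and 1.31), Dtx3l (0.32 and 0.18) and Ifitm3 (0.13 and 0.41). Oasl1 and its human counterpart OASL went opposite ways (-1.14 and 0.93), as did Ifi35 (-0.54 and 0.50), Trim25 (-0.21 and 0.22), Irf9 (0.30 and -0.31) and Parp14 (0.31 and -0.20). In both fold changes the group with the lower PHGDH mRNA is the numerator.

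**Figure D5:**
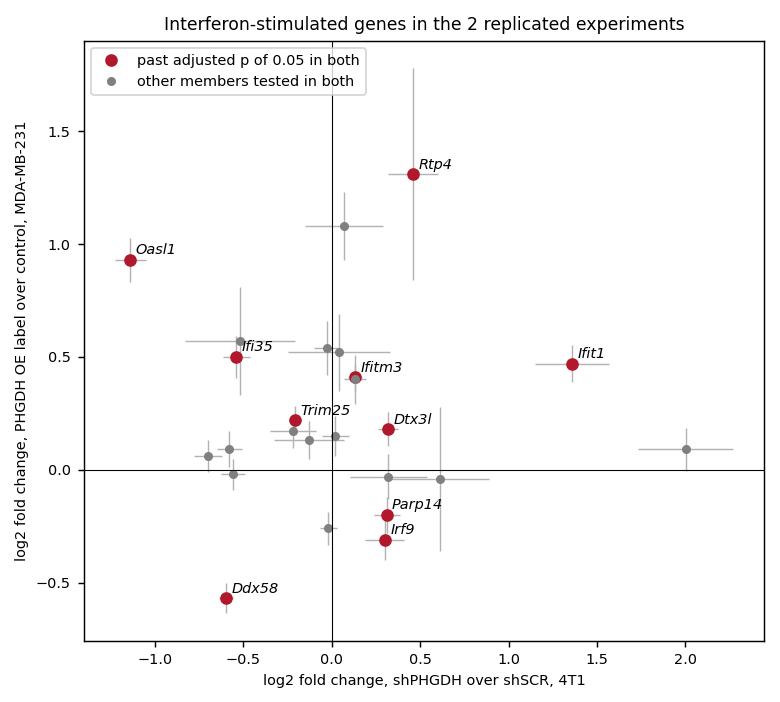
Log2 fold change of each of the 25 members tested in both experiments, in the 4T1 knockdown (x axis) and between the MDA-MB-231 libraries labelled PHGDH-overexpressing and controls (y axis), with standard errors as bars. The 10 members past an adjusted p of 0.05 in both are named by mouse symbol, and they lie in all 4 quadrants.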

How the data were processed

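RNA was measured in 19 libraries made from 1 µg of total RNA and read as 50 bp single-end reads, per the labels' protocols. The authors deposited raw counts per gene. The submitters' processing notes name HTSeq, Trim Galore 0.5.0 and HISAT2 2.1.0, and the mouse build GRCm38. No source used here gives the human build, the gene models or how strand was counted. The knockdown table held 10 library columns that were not used, and MDA-MB-231 columns named SCR were read as controls.

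Each replicated experiment, and the 3 cell lines, were fitted to the counts in edgeR 4.0.16 (R 4.3.3), with TMM scaling, low genes removed by filterByExpr, the quasi-likelihood test and Benjamini-Hochberg adjustment over all genes tested (0.05). The fits were checked on simulated data with 1.5-fold and 2-fold changes. There the fit of the 3 lines, with 3 residual degrees of freedom, found few of them. A line difference of that size can therefore be missed, and larger ones were not simulated. Single co-culture libraries were compared without a test, on log2 CPM (prior count 2). Only genes averaging 5 CPM or more over a pair entered, with a 2-fold threshold, and intervals are exact at 95%. Exon lengths and positions came from GENCODE vM21. The alternatives were DESeq2 1.42.0, other scalings and filters, lane, replicate block and left-out libraries. The members and lists were chosen with earlier results of these data known. All members could be named. From each other list, receptor, signalling and factor genes fixed by name and up to 5 that differed by 2-fold or more were named. A gene of these lists is not reported here.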

Additional observations from a re-analysis of the deposited data

Results flagged for a closer look

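In all, 3 members were at least 2-fold lower in 1 tumour line grown with Bend3 and at least 2-fold higher in the other, so the same contrast went opposite ways in 4T1 and EMT6.5. The log2 ratios, with a prior count of 2, were -1.53 in 4T1 and 1.28 in EMT6.5 for Oasl1, -1.11 and 2.89 for Ifit1, and -2.34 and 2.42 for Rsad2. Each value compares 1 library with 1 library, and the difference between the lines was not tested. Ifit1 and Rsad2 were under 5 CPM in EMT6.5 alone, so in that line they could only count as higher.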

How the results depend on the processing

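Of 160 repeats of the member counts under other settings, 139 stayed within 1.5 times the main count and 21 did not, and of 3228 repeats for single genes 0 changed direction in a called gene. Between 4T1 and EMT6.5, the 3 members higher in 4T1 became 6 with no filter on low counts and 6 with DESeq2. Leaving out 1 library gave 0 to 6 higher and 0 to 1 lower there, 6 to 16 higher and 0 to 2 lower for Bend3 against 4T1, and 11 to 23 higher and 0 to 1 lower for Bend3 against EMT6.5. It gave 10 to 12 higher and 2 to 4 lower in MDA-MB-231, and 8 to 10 higher and 7 to 8 lower in the knockdown. At 1.5-fold, 13 members were higher in 4T1 with Bend3 and 10 lower in Bend3 with EMT6.5, and at a mean of 1 CPM 1 was lower in the latter. DESeq2 called 6 members higher in the knockdown and 9 in MDA-MB-231. Scaling by library totals turned the share of higher among all called genes in MDA-MB-231 from 48.5% to 38.4%. It moved the median log2 fold change of all genes from -0.025 to -0.183 for Bend3 against 4T1 and from -0.006 to -0.178 for Bend3 against EMT6.5, where 10 and 17 members were then higher.

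Deviations of same-numbered libraries correlated at -0.0546 to -0.000138 (knockdown) and at -0.0228 to 0.0381 (MDA-MB-231). These values show no pairing by number, but they cannot exclude it, since the deviations also hold counting error. With the replicate number as a block, 9 members were higher and 7 lower in the knockdown, and 12 higher and 3 lower in MDA-MB-231. The partner RNA correction, and the direct comparison of both co-cultured Bend3 libraries, were chosen after seeing the data. With 1 library per culture and 4.27 M to 7.67 M counts, members under 5 CPM could not be compared closely.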
